A study of Mus musculus with 32 samples.

Results

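Genes for adhesion receptors of the B cell precursor surface and for the kinase that signals below them were examined, namely the integrin subunits Itga5, Itga4, Itga6, Itgb1 and Itgb7, the hyaluronan receptor Cd44 and focal adhesion kinase, Ptk2. The 7 members were chosen by name from 21911 protein-coding genes, and every HA-Ikaros, CHD4 and H3K27ac peak within 50 kb of a member's transcription start site (TSS) was taken. The peaks come from chromatin immunoprecipitation sequencing in B3, a pre-B line of the mouse that was originally derived from a lymphoma. These cells had been transduced with a retrovirus for HA-tagged Ikaros (IKZF1) fused to ERt2, a receptor domain meant to keep a protein out of the nucleus until 4-hydroxytamoxifen (4-OHT) is added, and had been sorted for the GFP that the same virus encodes. Cells were fixed without treatment (0 h) or 30 min, 1 h or 2 h after 500 nM 4-OHT, and each of the 3 targets was mapped in 2 replicates per time, which gives 8 peak lists per target and 24 in all. The untreated cells carried the same construct, and there was no line without it and no vehicle control among the lists. All libraries came from B3 cells with this construct, and the number of transductions behind them is not stated. Nothing in the labels says whether replicates were separate cultures, so p-values measure only the spread between these libraries.

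Integrins are heterodimers of an alpha and a beta chain that tie a cell to matrix proteins or to ligands on other cells. The alpha 5 chain pairs with beta 1 as the fibronectin receptor, alpha 4 pairs with beta 1 or beta 7 to bind VCAM1, fibronectin or MAdCAM1, and alpha 6 pairs with beta 1 to bind laminin, while CD44 binds hyaluronan. Ligand-bound integrins recruit focal adhesion kinase, and precursor B cells use these contacts to stay beside the stromal cells of the bone marrow. Ikaros is a zinc finger transcription factor of the lymphoid lineage, CHD4 is the remodelling ATPase of the NuRD corepressor complex, and H3K27ac marks active promoters and enhancers.

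The value used for a peak is its fold, the enrichment over local background in the authors' list. A region is a set of overlapping peaks of 1 target over all its libraries, its value in a library is the highest fold among its peaks there, and a region missing from a list was below that library's threshold and is not shown to be unmarked. A region's distance from a TSS is that of its nearest edge. Lists held 5373 to 14874 peaks for Ikaros, 2488 to 9593 for CHD4 and 21468 to 33664 for H3K27ac. Coverage averaged 1.98 to 3.40 fragments a base for Ikaros and 2.69 to 3.75 for H3K27ac, and is unknown for CHD4. The median H3K27ac fold over regions called in all 8 libraries fell by 0.461 on the log2 scale from 0 h to 2 h, so changes after normalization are relative to that shift. An H3K27ac peak at the start site, that is within 1 kb of it, was called in all 8 libraries for 8 of 8 B lineage markers, against 0 of 4 T cell, 0 of 4 myeloid, 1 of 3 erythroid (Klf1), 0 of 3 fibroblast and 0 of 2 hepatocyte or epithelial markers.

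Near the members there were 31 of 23856 Ikaros regions, 23 of 15358 CHD4 regions and 39 of 39309 H3K27ac regions. The Ikaros sequences below hold the summit of the highest peak of a region and 50 bases on each side, and they are shown because the regions are the leading, the gained or the lost Ikaros region of a member, or lie at its TSS. Not all 12 such windows are shown, since the lost Itgb7 region and the TSS regions of Itga6, Itgb7 and Cd44 are left out. The windows were read on the plus strand of GRCm38 (mm10) from RefSeq. Capitals mark the core words of the Ikaros motif, GGAA and GGGA on the strand shown or TTCC and TCCC where they stand on the other strand, and words may overlap.

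Itga5, leading, chr15:103376967-103377067: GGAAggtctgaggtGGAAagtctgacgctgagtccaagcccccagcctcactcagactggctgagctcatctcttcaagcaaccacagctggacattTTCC

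Itga5, gained, chr15:103374407-103374507: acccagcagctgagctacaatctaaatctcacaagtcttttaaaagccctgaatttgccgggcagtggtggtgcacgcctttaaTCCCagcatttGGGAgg

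Itga4, TSS, chr2:79255037-79255137: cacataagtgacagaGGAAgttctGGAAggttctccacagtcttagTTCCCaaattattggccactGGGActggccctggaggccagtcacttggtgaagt

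Itga4, lost, chr2:79206369-79206469: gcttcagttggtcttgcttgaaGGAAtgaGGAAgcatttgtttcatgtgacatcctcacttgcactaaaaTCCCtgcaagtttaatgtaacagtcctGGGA

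Itgb7, intron, gained, chr15:102225379-102225479: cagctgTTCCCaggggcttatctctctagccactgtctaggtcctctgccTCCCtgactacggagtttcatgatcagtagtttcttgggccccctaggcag

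Itgb1, TSS, chr8:128685586-128685686: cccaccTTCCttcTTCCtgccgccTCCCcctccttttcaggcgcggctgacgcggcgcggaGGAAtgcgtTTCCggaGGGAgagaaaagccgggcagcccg

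Itga6, intron, chr2:71751988-71752088: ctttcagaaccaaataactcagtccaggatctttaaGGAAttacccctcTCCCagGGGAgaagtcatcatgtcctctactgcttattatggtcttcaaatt

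Cd44, intron, lost, chr2:102885451-102885551: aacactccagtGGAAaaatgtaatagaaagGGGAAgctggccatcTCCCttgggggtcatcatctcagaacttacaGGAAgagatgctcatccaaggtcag

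The 8 windows held 2 to 6 core words each, with 6 at the Itgb1 start site and 2 in the gained Itga5 region, whose window was 49.5% repeat-masked. The longer word TGGGAA, or TTCCCA on the other strand, occurred in the window of the Itga4 start site and in that of the Itgb7 intron, and in 2 of 12 windows when the other named Ikaros regions were counted. Over whole Ikaros lists it occurred in 20.3% and 20.2% of summit windows at 0 h and in 12.1% and 12.6% at 2 h, while at least 1 core word stood in 92.0% to 98.0% of windows. A word match describes the sequence and does not show a bound site.

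The regions were spread unevenly over the members. Itga5 had 8 Ikaros, 7 CHD4 and 13 H3K27ac regions, and Itga6 had 8, 8 and 11, where the median protein-coding gene had 1, 1 and 2. As many CHD4 regions as at Itga6 or more were found at 1.97% of genes, and as many as at Itga5 at 3.22%. For Ikaros that share was 7.54% at either gene, and for H3K27ac it was 7.45% at Itga6 and 4.43% at Itga5. CHD4 regions called in both libraries of a time numbered 0 at 0 h and 1 at 2 h for Itga6, and 3 and 2 for Itga5. Itga4 had 3, 2 and 7, Itgb7 had 7, 3 and 4, Cd44 had 3, 2 and 3, and Itgb1 had 2, 1 and 1. Ptk2 had none for any target.

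Many of these regions were called only once. In 1 library only stood 10 of 31 Ikaros regions (35.1% of all Ikaros regions), 12 of 23 CHD4 regions (49.6% of all) and 14 of 39 H3K27ac regions (36.4% of all). All 8 libraries shared 3 Ikaros regions (9.66% of all), 16 H3K27ac regions (37.4% of all) and 0 CHD4 regions (4.71% of all). Of the Ikaros regions near the members, 64.5% overlapped a CHD4 region and 83.9% an H3K27ac region, against 54.6% and 87.4% of all Ikaros regions. The share near the members with CHD4 was 20% when only peaks with a −log10 q of at least 3 were used. No share over all regions at that threshold stands beside it, so the drop is not read as a trait of the members. Of the CHD4 regions, 87.0% overlapped Ikaros and 100% H3K27ac, against 73.4% and 85.1% of all CHD4 regions, and of the H3K27ac regions 48.7% overlapped Ikaros against 38.8% of all.

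At the start sites themselves acetylation was called in both libraries of a time at more members than Ikaros or CHD4. Within that 1 kb distance H3K27ac was called in both 0 h libraries at 4 of 7 members (41.2% of all genes) and in both 2 h libraries at the same 4 (39.8% of all genes), which are Itga4, Itga6, Itgb1 and Cd44. Ikaros was called there in both 0 h libraries at Itga6 and Itgb1 (9.92% of all genes) and in both 2 h libraries at Itga4 and Itgb1 (19.1% of all genes). CHD4 was called there at no member in both 0 h libraries (1.52% of all genes) and at Itga4 in both 2 h libraries (4.72% of all genes).

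Regions that changed their call between 0 h and 2 h were few. Called in both 2 h libraries and neither 0 h library, hereafter gained, were 2 Ikaros regions (12.0% of all Ikaros regions were gained), 2 CHD4 regions (5.30% of all) and 1 H3K27ac region (3.73% of all). The reverse, hereafter lost, held for 3 Ikaros regions (3.59% of all), 0 CHD4 regions (1.45% of all) and 1 H3K27ac region (2.78% of all). With 2 libraries a time these counts carry no test. Leaving out 1 library lets a single list decide at its time, and the Ikaros gains then came to 4 without 0 h replicate 2, to 9 without 2 h replicate 1 and to 7 without 2 h replicate 2, with 6 losses without 2 h replicate 1. The CHD4 gains likewise came to 4 without 0 h replicate 2 and 9 without 2 h replicate 1, and the CHD4 losses to 6 without 0 h replicate 1, the shortest list, 1 without 0 h replicate 2 and 2 without 2 h replicate 2. For H3K27ac there were 3 gains without 0 h replicate 1, 3 without 2 h replicate 1 and 8 without 2 h replicate 2, and 3 losses without 0 h replicate 2 and 2 without 2 h replicate 1.

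**Figure D1:**
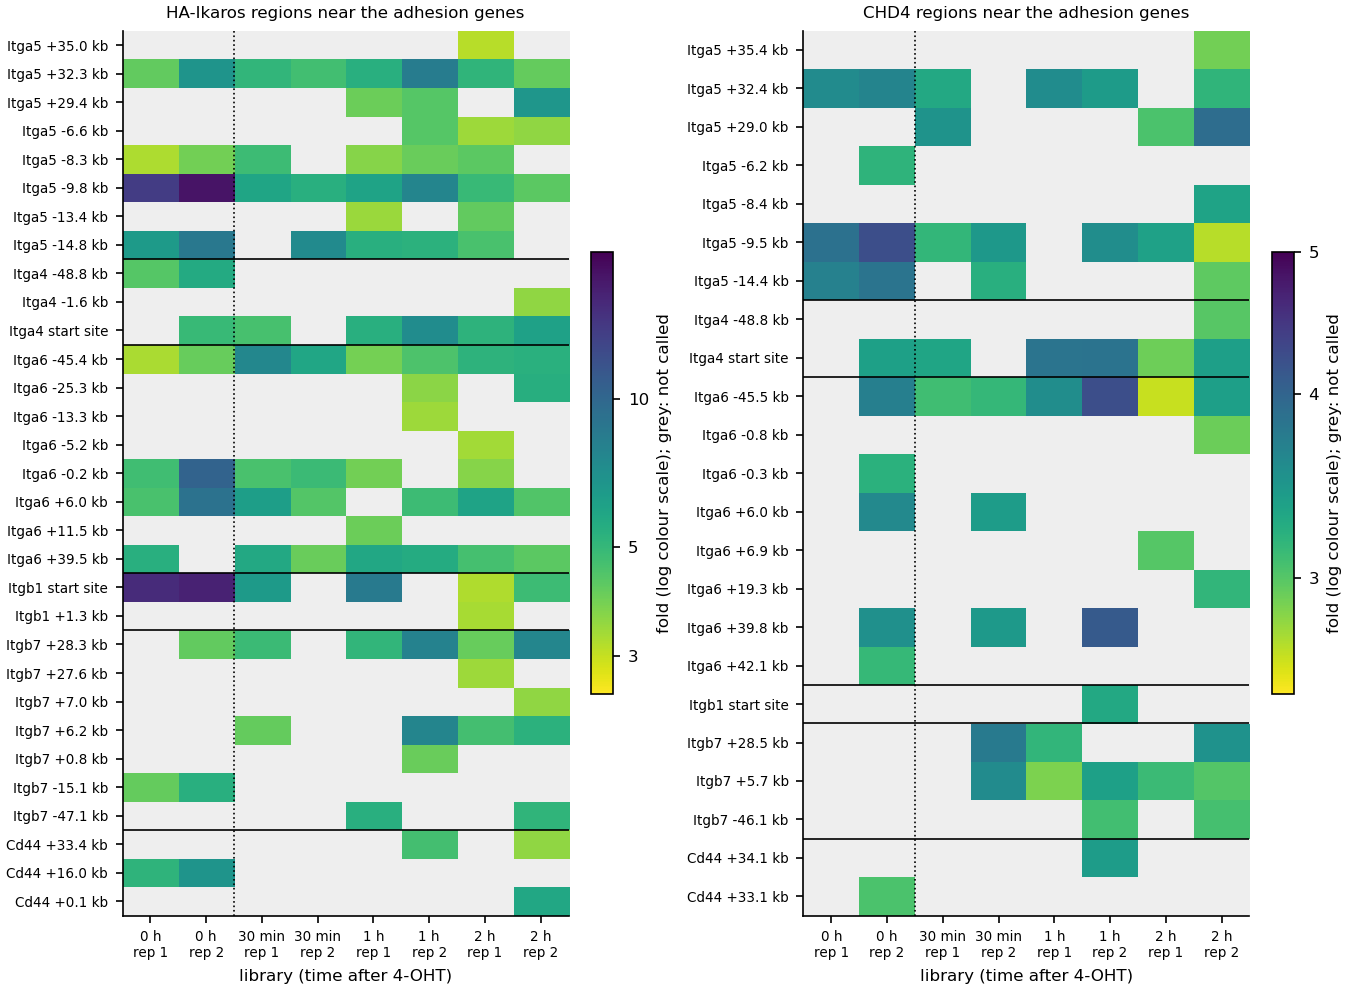
Fold of each Ikaros and CHD4 region near the members (rows) in each library (columns, by time and replicate), with grey cells where the region was not in the list and a log colour scale. Of 31 Ikaros regions 3 fill all 8 columns, none of the 23 CHD4 regions does, and the 3 lost Ikaros regions fill only the 0 h columns.

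Itga5, the alpha chain of the fibronectin receptor, carried by far the widest acetylated stretch among the members. The gene lies on the minus strand at chr15:103344286-103366763, and an H3K27ac domain of 16391 bp at chr15:103372653-103389043 began 5.9 kb upstream of its TSS, in intergenic sequence that holds the start of the unnamed transcript Gm37322. Only 83 of 39309 H3K27ac regions (0.211%) were as wide or wider, against a median width of 802 bp. The study counts Itga5 among the genes at large enhancers that Ikaros represses quickly in these cells, so a change here is not independent evidence of that direction, and the domain was picked for description after its values were seen.

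The H3K27ac fold of the domain was 39.0 and 42.2 in the untreated libraries, replicate 1 before replicate 2 here and throughout. After 4-OHT it was 9.21 and 17.0 at 30 min, 13.5 and 9.60 at 1 h, and 13.0 and 6.21 at 2 h. Every treated library was thus below both untreated ones. The normalized log2 change at 2 h was -1.80 ± 0.41 (SE), 3.48 times lower, but with an adjusted p of 0.0636 in limma it missed the threshold of 0.05 over 14716 regions. Leaving out single libraries gave log2 changes from -2.31 to -1.27.

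A second reading of the same peaks, the summit height, divides the fragments over the summit by the library's mean coverage and uses no local background. On that scale the domain stood at 68.2 and 56.3 at 0 h, 25.9 and 21.9 at 30 min, 17.5 and 12.8 at 1 h, and 16.4 and 12.9 at 2 h. The fall was present by 30 min, with a log2 change of -1.49 and adjusted p = 6.71e-07, and stood at -1.72 ± 0.15 (SE) with adjusted p = 1.41e-08 at 2 h, 3.29 times lower. The call at this domain thus differs with the denominator. Height passed at 3 of 3 times, where it called 4.41%, 8.79% and 10.4% of all regions lower, and fold passed at none, where it called 0%, 0.109% and 0.435% lower. Bases under a peak within the domain were also fewer, going from 16391 and 15763 at 0 h to 14157 and 13468 at 30 min, 12216 and 12116 at 1 h and 14249 and 12541 at 2 h, so most of the domain was still under a peak at 2 h. In these bulk samples fewer cells with the mark and less of the mark per cell cannot be told apart.

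**Figure D2:**
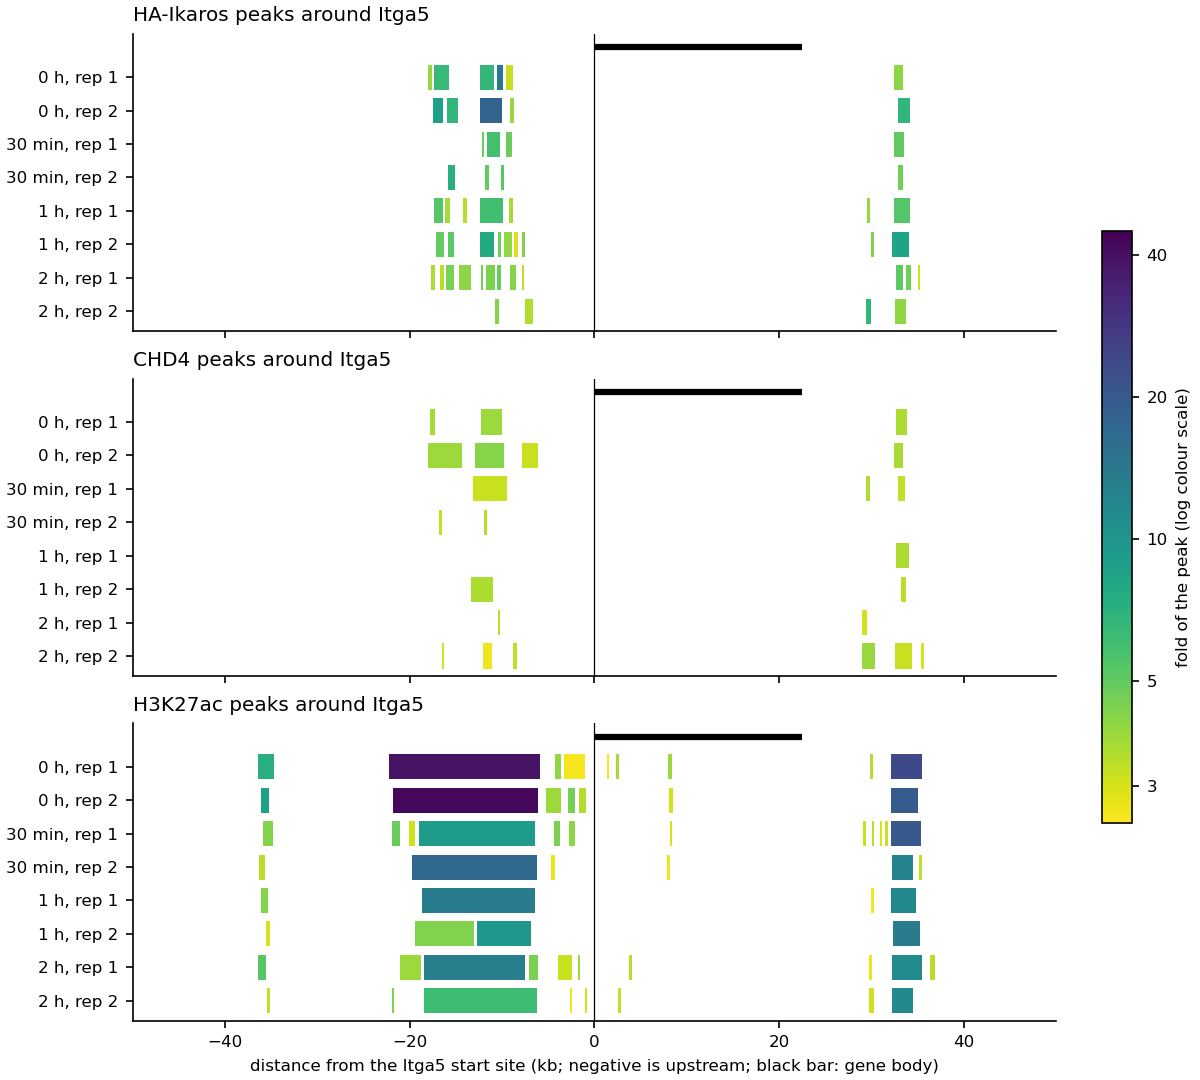
Peaks of the 3 targets within 50 kb of the Itga5 TSS, drawn to scale against distance from the TSS in kb, with 1 line per library, the gene body as a black bar and colour for the fold of the peak on a log scale. H3K27ac peaks cover 16391 and 15763 bp of the upstream domain at 0 h and 14249 and 12541 bp at 2 h, and Ikaros and CHD4 peaks sit inside it.

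Inside the domain lay the leading Ikaros region of Itga5, at chr15:103376582-103379186, 9.8 kb upstream of the Itga5 TSS. Its Ikaros fold was 13.8 and 18.0 before 4-OHT, 5.90 and 5.37 at 30 min, 5.97 and 7.73 at 1 h, and 4.94 and 4.22 at 2 h. The HA signal was thus highest in the untreated cells, and the 0 h values did not overlap any later one. The lists hold no measure of where the fusion protein was in the cell, and whether part of it was nuclear before 4-OHT, or the 0 h samples differed in another way, was not tested. The 0 h folds are therefore not shown to be a level without nuclear fusion protein, here or at the lost regions. It was the only member region of any target called on fold, with a log2 change of -1.40 ± 0.35 (SE) at 2 h, 2.64 times lower, and an adjusted limma p of 0.0347, where 0.694% of the 2305 Ikaros regions tested were called lower and 0.174% higher. Height gave -1.37 ± 0.23 (SE) with adjusted p = 0.0017, where 7.2% of Ikaros regions were called lower and 5.68% higher. The fold call held without either 30 min library or 1 h replicate 2 and was lost without any of the other 5, with an adjusted p of 0.243 without 0 h replicate 1, 0.278 without 0 h replicate 2, 0.0515 without 1 h replicate 1, 0.0837 without 2 h replicate 1 and 0.198 without 2 h replicate 2. It was also lost in the fit over regions of at least 6 libraries (adjusted p = 0.0731) and with time as a numeric trend (adjusted p = 0.162). The highest fold anywhere in an Ikaros list was 43.7 and 46.0 at 0 h and between 14.3 and 23.5 at the later times, and the part of that in this result was not tested.

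The domain held several weaker Ikaros regions. The gained one, at chr15:103373390-103374648 and 6.6 kb upstream, was absent at 0 h and 30 min and had a fold of 4.33 in 1 h replicate 2 and of 3.38 and 3.52 at 2 h. Its 2 peaks at 2 h did not overlap each other and were joined through the 1 h peak, and neither reached a −log10 q of 3, so the gain did not hold at that threshold. Another, 14.8 kb upstream and chosen after its values were seen, had folds of 6.45 and 8.69 at 0 h, 7.38 in 30 min replicate 2, 5.40 and 5.26 at 1 h and 4.55 in 2 h replicate 1. The number of Ikaros peaks in the whole domain was 5 and 4 at 0 h, 3 and 3 at 30 min, 5 and 7 at 1 h, and 9 and 2 at 2 h, the time at which replicates were farthest apart.

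CHD4 was present in the domain before 4-OHT. The CHD4 region called there most often, at chr15:103376223-103380166 and chosen after its values were seen, had a fold of 3.86 and 4.24 at 0 h, 3.16 and 3.46 at 30 min, 3.56 in 1 h replicate 2, and 3.36 and 2.69 at 2 h. CHD4 peaks covered 2916 and 8468 bp of the domain at 0 h and 245 and 1678 bp at 2 h, so both 2 h libraries lay below both 0 h libraries. Their lists held 2488 and 6000 peaks at 0 h and 5523 and 9593 at 2 h. This length carries no test, no share over all regions stands beside it, and CHD4 coverage is unknown. The gained CHD4 region, which also led by rank, lay 29.0 kb downstream of the TSS at chr15:103336423-103337767, in an intron of the neighbouring gene Zfp385a, with folds of 3.50 in 30 min replicate 1 and of 3.04 and 3.91 at 2 h. That gain did not hold at a −log10 q of at least 3 or with lists of equal length.

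Acetylation was weak at the Itga5 start site. Within 1 kb of it H3K27ac was called only in 0 h replicate 2, with a fold of 3.55, and in 2 h replicate 2, with 2.98. Both peaks belong to a region of separate weak peaks at chr15:103367524-103372048, whose highest fold was 4.05 and 4.59 at 0 h, 4.42 and 2.75 at 30 min and 3.77 and 2.98 at 2 h, with no peak at 1 h. Apart from 2 h replicate 2 those highest peaks lay more than 1 kb from the TSS. The only lost H3K27ac region among the members lay 7.9 kb into the gene, in an intron at chr15:103358242-103358890, with folds of 3.86 and 3.03 at 0 h and 2.95 and 2.68 at 30 min and no peak thereafter. Among the 13 H3K27ac regions of Itga5 it ranks with the weak ones, close to the threshold of its lists.

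The leading H3K27ac region of Itga5 by rank over time was not the domain but a region 32.1 kb downstream of the TSS, in a Zfp385a intron at chr15:103331241-103334623. Its fold was 24.1 and 19.6 at 0 h, 20.2 and 12.4 at 30 min, 11.6 and 13.5 at 1 h, and 11.3 and 11.5 at 2 h, so both 2 h values were below both 0 h values. After normalization the change was -0.47 ± 0.28 (SE, adjusted p = 0.453) on fold and -0.56 ± 0.17 (adjusted p = 0.021) on height. The Ikaros region there, 1 of the 3 tested near the members, had folds of 4.11 and 6.80 at 0 h and 5.13 and 4.08 at 2 h and a log2 change of -0.17 ± 0.35 (SE, adjusted p = 0.868).

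Itga4, the alpha chain shared by the VCAM1 and MAdCAM1 receptors, had its strongest acetylation at its own start site. Its locus is chr2:79255426-79333123 on the plus strand, and the promoter region spanned chr2:79253144-79258547. Its H3K27ac fold was 17.7 and 19.2 at 0 h, 10.6 and 8.89 at 30 min, 13.7 and 8.39 at 1 h, and 12.4 and 10.9 at 2 h. No treated library reached the 0 h values, but the fold change after normalization was -0.21 ± 0.26 (SE, adjusted p = 0.767). By height the promoter went from 36.0 and 32.6 at 0 h to 18.9 and 18.7 at 30 min, 17.7 and 11.2 at 1 h and 15.7 and 13.9 at 2 h. That was a normalized log2 change of -0.90 at 30 min (adjusted p = 0.00135), -1.06 at 1 h (adjusted p = 7.76e-05) and -0.77 ± 0.17 (SE) at 2 h (adjusted p = 0.00156), with the size at 2 h depending on scale.

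Ikaros and CHD4 were both found at the Itga4 promoter. Ikaros, at chr2:79254562-79256368, had a fold of 4.93 in 0 h replicate 2, 4.56 in 30 min replicate 1, 5.40 and 7.25 at 1 h, and 5.20 and 6.09 at 2 h. CHD4, at chr2:79253600-79257078, had 3.38 in 0 h replicate 2, 3.33 in 30 min replicate 1, 3.83 and 3.84 at 1 h, and 2.91 and 3.38 at 2 h. Both were thus missing from the same 2 libraries, 0 h replicate 1 and 30 min replicate 2, whose CHD4 lists were the shortest 2 of the 8, and the Ikaros list of 30 min replicate 2 was the shortest Ikaros list.

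Away from the promoter Itga4 had 1 region gained and 1 lost. H3K27ac appeared 23.4 kb upstream at chr2:79229964-79232055, with no peak at 0 h and folds of 4.00 and 2.97 at 30 min, 5.49 and 4.19 at 1 h, and 4.64 and 5.96 at 2 h. It was the only H3K27ac region of the members that was gained, and it was already called in both 30 min libraries. The lost Ikaros region lay 48.8 kb upstream at chr2:79206305-79206605, with folds of 4.31 and 5.61 at 0 h and no later peak. The H3K27ac region over it, chosen for mention after its values were seen, had folds of 8.41 and 4.60 at 0 h and 3.74 and 4.43 at 2 h, with a normalized height change of -1.04 at 30 min (adjusted p = 0.0094), -0.88 at 1 h (adjusted p = 0.0141) and -0.60 at 2 h (adjusted p = 0.0815).

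Itgb7, the beta chain of the gut-homing receptor, had no H3K27ac peak within 1 kb of its TSS in any library, where 41.2% of protein-coding genes had one in both 0 h libraries. It occupies chr15:102215995-102231944 on the minus strand. Its leading H3K27ac region, 27.1 kb downstream at chr15:102201349-102204859, covers the start sites of Csad and Zfp740, and its fold was 18.7 and 15.7 at 0 h and 12.2 and 9.50 at 2 h. Relative to all regions its height differed by -0.02 on the log2 scale, with an adjusted limma p of 0.96. The 0 h and 2 h folds did not overlap, yet the normalized fold change was -0.20 ± 0.27 (SE, adjusted p = 0.783). The leading CHD4 region of the gene lay within that stretch, over the Zfp740 start site and not that of Csad, with folds of 3.76 in 30 min replicate 2, 3.17 in 1 h replicate 1 and 3.51 in 2 h replicate 2.

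Gained regions of Ikaros and CHD4 overlapped in the body of Itgb7. The Ikaros region lay 6.2 kb into the gene, in an intron at chr15:102225005-102225790, and had a fold of 4.10 in 30 min replicate 1, 7.77 in 1 h replicate 2, and 4.65 and 5.26 at 2 h. The CHD4 region overlapping it, at chr15:102224636-102226210, had 3.57 in 30 min replicate 2, 2.87 and 3.37 at 1 h, and 3.12 and 3.01 at 2 h. The CHD4 gain did not hold at a −log10 q of at least 3 or with lists of equal length, where 0 CHD4 regions near the members were gained. H3K27ac was called there only in 0 h replicate 1, with a fold of 2.44, so this was a region of Ikaros and CHD4 with next to no acetylation above threshold. A lost Ikaros region 15.1 kb upstream, in an intron of Rarg at chr15:102247049-102247344, had folds of 4.10 and 5.40 at 0 h, and Ikaros within 1 kb of the Itgb7 TSS was called once, with 4.02 in 1 h replicate 2.

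Itgb1, the beta chain shared by the fibronectin, VCAM1 and laminin receptors, had a single H3K27ac region, over its promoter. It occupies chr8:128685654-128733200 on the plus strand, and the region spanned chr8:128684827-128687861. Its fold was 13.3 and 18.4 at 0 h, 23.1 and 19.2 at 30 min, 17.1 and 11.7 at 1 h, and 11.8 and 13.2 at 2 h, and the normalized change at 2 h was 0.12 ± 0.29 (SE, adjusted p = 0.88). On height it was -0.20 ± 0.14 (adjusted p = 0.328), of the opposite sign, so no direction can be given.

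Ikaros at the Itgb1 start site was strongest before 4-OHT, as at the Itga5 domain. The region at chr8:128685045-128685953 had a fold of 15.5 and 16.4 at 0 h, 6.44 in 30 min replicate 1, 8.49 in 1 h replicate 1, and 3.21 and 4.80 at 2 h. It was not called in replicate 2 at 30 min and 1 h and so entered no test, but each later value was below both 0 h values. CHD4 was called there once, with a fold of 3.29 in 1 h replicate 2.

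Itga6, the alpha chain of the laminin receptor, had many regions and no common direction. The gene lies on the plus strand at chr2:71745616-71858416. Its leading H3K27ac region, 44.8 kb upstream in intergenic sequence at chr2:71696006-71700835, had a fold of 25.3 and 18.3 at 0 h, 16.8 and 24.2 at 30 min, 20.7 and 14.0 at 1 h, and 12.4 and 21.7 at 2 h. These values overlap between times and the fold change was 0.06 ± 0.35 (SE, adjusted p = 0.957). By height the region was nearly level, with 32.5 and 32.1 at 0 h and 34.9 and 32.9 at 2 h, while the median height of all H3K27ac regions fell by 0.473 on the log2 scale. Relative to that shift it was higher by 0.46 ± 0.13 (SE, adjusted p = 0.0162).

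Ikaros at the same place, the last of the 3 Ikaros regions tested, was higher at 30 min on the height scale. Its fold, at chr2:71698260-71700170, was 3.25 and 4.06 at 0 h, 7.63 and 5.83 at 30 min, 3.87 and 4.47 at 1 h, and 5.23 and 5.36 at 2 h. The log2 change in fold was 0.99 ± 0.33 at 30 min (SE, adjusted p = 0.149) and 0.54 ± 0.33 at 2 h (SE, adjusted p = 0.422), and that in height was 0.90 at 30 min (adjusted p = 0.0311, where 2.78% of Ikaros regions were called higher and 4.60% lower) and 0.69 at 2 h (adjusted p = 0.0631). CHD4 there, in 7 libraries, had folds from 2.65 to 4.23 and was absent only from 0 h replicate 1, the shortest CHD4 list.

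An acetylated stretch within Itga6 also stood out on height alone and was chosen after its values were seen. It lies in an intron 39.3 kb from the TSS, at chr2:71784869-71788862, with a fold of 12.2 and 14.6 at 0 h, 10.5 and 13.6 at 30 min, 10.7 and 16.0 at 1 h, and 13.4 and 6.61 at 2 h. Its height was 15.5 and 19.3 at 0 h, 21.3 and 20.4 at 30 min, 23.3 and 21.6 at 1 h, and 23.8 and 23.9 at 2 h, so that each treated library exceeded both untreated ones even before normalization. The height change at 2 h was 0.90 ± 0.17 (SE, adjusted p = 0.000339), but on fold it was -0.06 ± 0.41 (adjusted p = 0.965). The direction therefore depends on the scale. The leading CHD4 region of Itga6 lay over this stretch, 39.8 kb from the TSS, with a fold of 3.53 in 0 h replicate 2, 3.44 in 30 min replicate 2 and 4.10 in 1 h replicate 2.

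At the Itga6 start site acetylation was weak. H3K27ac at chr2:71744248-71745311, 0.3 kb upstream, had folds of 5.68 and 5.80 at 0 h and 4.16 and 3.48 at 2 h, and a normalized change of -0.32 ± 0.27 (SE, adjusted p = 0.613). Ikaros there had 4.74 and 10.3 at 0 h, 4.55 and 4.85 at 30 min, 3.88 in 1 h replicate 1 and 3.64 in 2 h replicate 1, which leaves the 2 replicates far apart at 0 h. CHD4 was called within 1 kb of the TSS in 0 h replicate 2, with 3.21, and in 2 h replicate 2, with 2.92. The leading Ikaros region of the gene lay 6.0 kb downstream of the TSS, in an intron, with folds of 4.53 and 9.13 at 0 h and 5.97 and 4.39 at 2 h.

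Cd44, the hyaluronan receptor, had an acetylated promoter and an acetylated intron, of which only the intron passed the test, and only on height. Its locus is chr2:102811141-102901665 on the minus strand. At the promoter, chr2:102900524-102901782, the H3K27ac fold was 9.69 and 8.92 at 0 h, 7.41 and 5.45 at 30 min, 6.19 and 4.94 at 1 h, and 5.54 and 4.81 at 2 h, each treated value below both untreated ones. The normalized change was -0.44 ± 0.26 on fold (SE, adjusted p = 0.444) and -0.52 ± 0.21 on height (adjusted p = 0.0802), and neither passed. The intronic region, 32.4 kb from the TSS at chr2:102866053-102869241, had a fold of 11.1 and 11.2 at 0 h, 9.97 and 13.4 at 30 min, 13.8 and 9.80 at 1 h, and 11.6 and 13.6 at 2 h. There the fold change was 0.63 ± 0.30 (SE, adjusted p = 0.341) and the height change 0.60 ± 0.19 (adjusted p = 0.0244), relative to the fall of all regions, with unscaled heights of 14.1 and 14.6 at 0 h and 14.7 and 17.4 at 2 h. The difference between the promoter and the intron was not tested.

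The lost Ikaros region of Cd44 was also its leading one. In an intron 16.0 kb from the TSS, at chr2:102885383-102885689, its fold was 5.17 and 6.80 at 0 h and no later library had a peak. At the Cd44 promoter Ikaros was called once, with 5.76 in 2 h replicate 2, and 2 CHD4 regions 33.1 and 34.1 kb from the TSS were called in 1 library each, with 3.04 in 0 h replicate 2 and 3.41 in 1 h replicate 2.

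**Figure D3:**
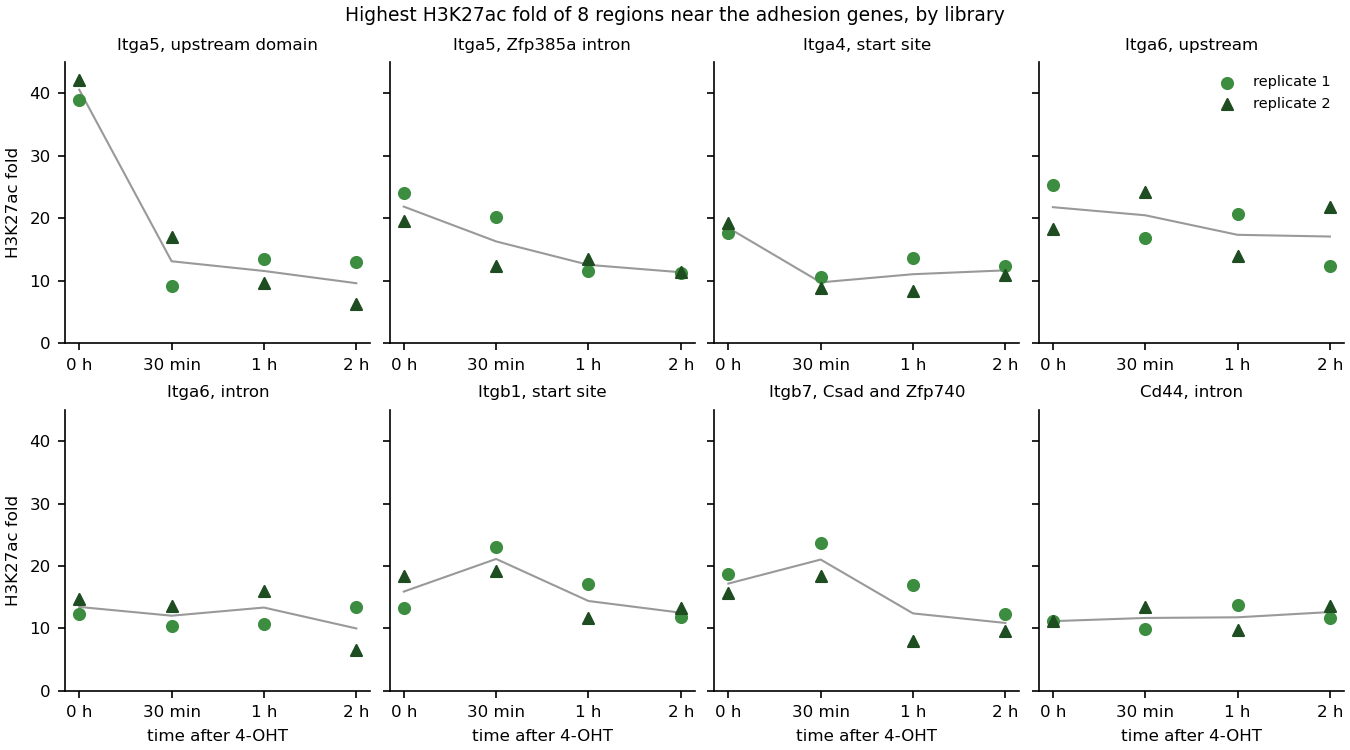
H3K27ac fold (linear axis) in each library against time for 8 regions near the members, with a point for each replicate and a line through their means. The Itga5 domain starts at 39.0 and 42.2 and ends at 13.0 and 6.21, while the Itga6 upstream region starts at 25.3 and 18.3 and ends at 12.4 and 21.7.

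Ptk2, the gene of focal adhesion kinase, had no peak of any target within 50 kb of its TSS in any of the 24 lists. Taken target by target, 32% of protein-coding genes had no H3K27ac region in that window and 49.3% had no CHD4 region. The gene lies on the minus strand at chr15:73205102-73423280. The nearest region of each target lay 68.2 kb upstream for Ikaros, in all 8 libraries, 68.3 kb for CHD4, in 4 libraries, and 68.0 kb for H3K27ac, in all 8, and the protein-coding start site closest to them was that of Dennd3. The paralog Ptk2b, which encodes the related kinase PYK2, had H3K27ac at its start site in all 8 libraries and 5 Ikaros, 4 CHD4 and 18 H3K27ac regions.

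Over all 16 H3K27ac regions of the members that were called in every library, fold gave no call at 2 h with limma, while 0.435% of 14716 regions were called lower and 0.183% higher (at 1 h 0.109% and 0.0136%, at 30 min 0%) and 2249 had an unadjusted p under 0.05. Height called 3 lower, the Itga5 domain, the Zfp385a intron and the Itga4 promoter, and 3 higher, both distal Itga6 regions and the Cd44 intron, where 10.4% of all regions were called lower and 10.8% higher. At 30 min height called 3 lower and 0 higher (4.41% and 1.35% of all), the 3 being the Itga5 domain, the Itga4 promoter and the region 48.3 kb upstream of Itga4. At 1 h it called 5 lower and 1 higher (8.79% and 7.03% of all), with the Zfp385a intron and a region 34.8 kb upstream of Itga5 added to those 3, and the Itga6 intron as the higher one. The region 34.8 kb upstream of Itga5, chosen after its values were seen, had folds of 7.30 and 8.75 at 0 h, 4.27 and 3.38 at 30 min, 4.26 and 2.96 at 1 h, and 5.34 and 3.29 at 2 h. The members' median log2 change at 2 h was -0.20 on either scale, against 0.01 over all regions. No CHD4 region of a member was called in all 8 libraries, so none was tested, and limma called 0 of 723 CHD4 regions on fold, with 58 at an unadjusted p under 0.05 and called 1 lower and 3 higher after median centring (0.138% and 0.415% of them).

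**Figure D4:**
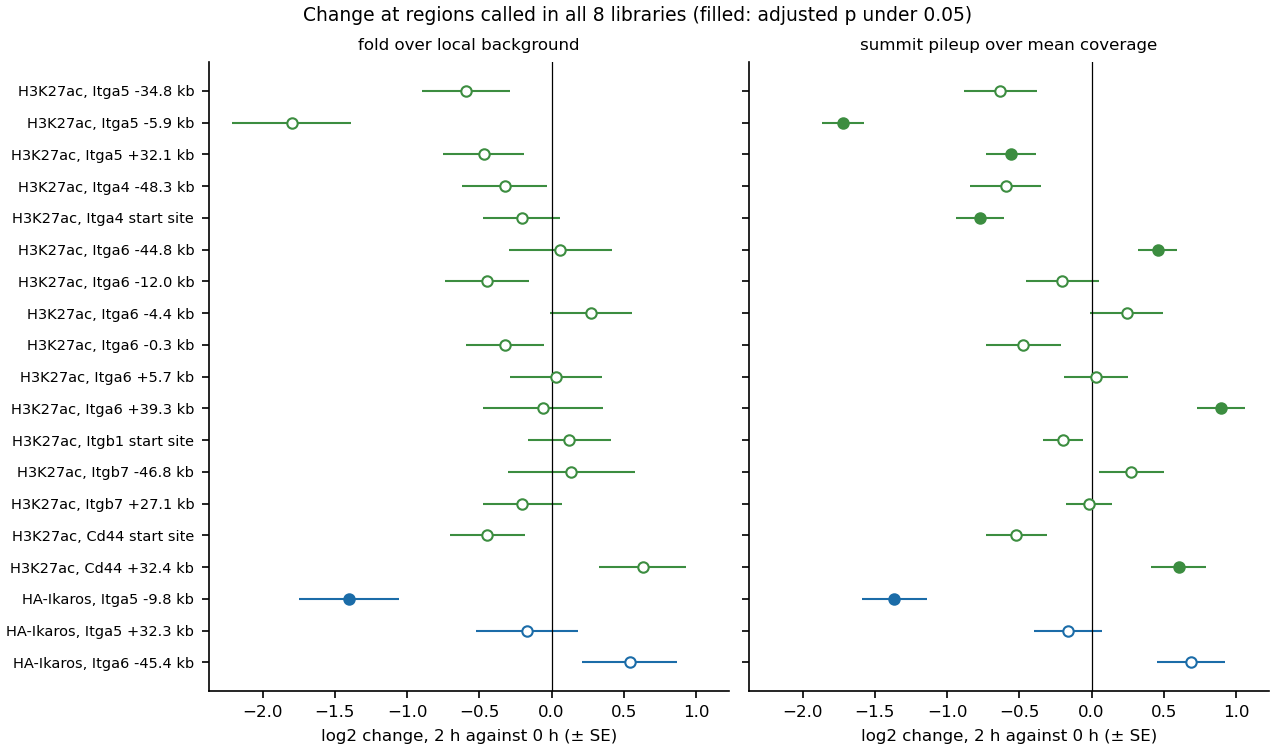
Normalized log2 change from 0 h to 2 h, with 1 SE, for each member region called in all 8 libraries of its target, on the fold scale (left) and the summit height scale (right), with filled points where the adjusted p is under 0.05. The Itga5 domain is lowest on both, at -1.80 and -1.72, and the Itga6 intron shows the widest gap between scales, at -0.06 and 0.90.

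The length of DNA under H3K27ac peaks within 50 kb gave a measure that uses neither scale. At Itga5 it was 25649 and 23274 bp at 0 h, 21247 and 17442 at 30 min, 15899 and 15413 at 1 h, and 21410 and 16616 at 2 h. Itga5 was the only member with both 2 h values below both 0 h values (19.3% of 14896 genes), and its 2 h mean was 77.7% of that at 0 h, a ratio that 13.4% of genes matched or fell under while the median gene stood at 107%. The shortest length at Itga5 was at 1 h and not at 2 h.

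At Itga4 the covered length was 5727 and 4594 bp at 0 h and 8272 and 7441 bp at 2 h, or 152%. At Itgb1 it was 1854 and 1927 bp at 0 h and 2198 and 2816 bp at 2 h, or 133%. These were the 2 members with both 2 h values above (34.7% of genes), and at Itga4 the covered length was longer while the promoter height was lower. Itga6, Itgb7 and Cd44 overlapped between 0 h and 2 h. Without 0 h replicate 2 or without 2 h replicate 1 the members below came to 2, and without 2 h replicate 2 those above came to 4.

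**Figure D5:**
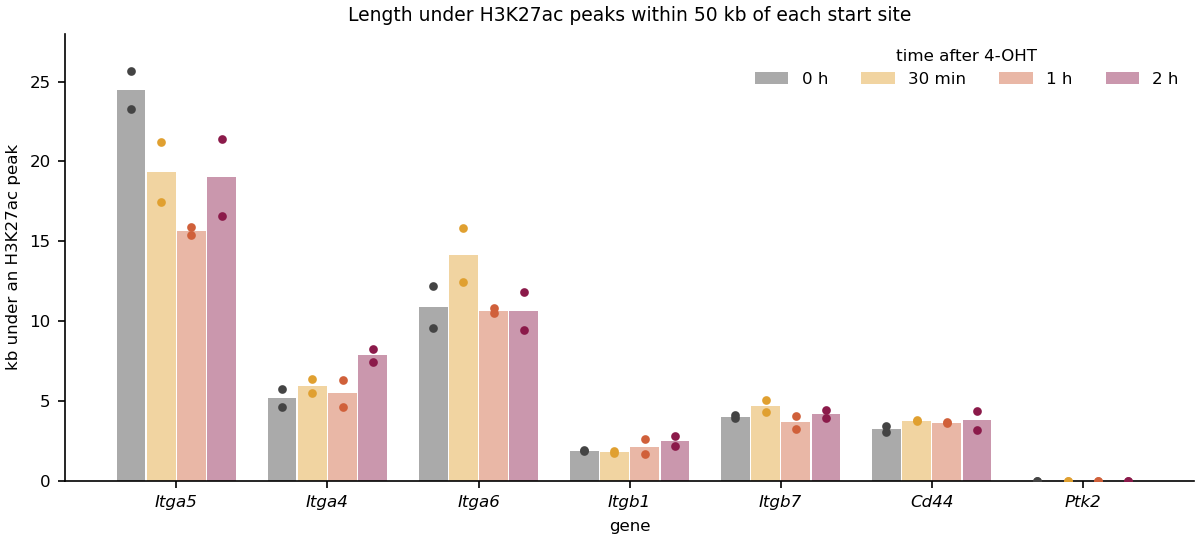
Length under H3K27ac peaks within 50 kb of each member's TSS, in kb, with points for libraries and bars for the mean of each time. Itga5 goes from 25649 and 23274 bp at 0 h to 21410 and 16616 bp at 2 h, Itga4 goes from 5727 and 4594 bp to 8272 and 7441 bp, and Ptk2 is at 0 throughout.

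Other genes of integrin adhesion were read in the same way. Of 21 other integrin subunits, 3 had H3K27ac within 1 kb of the TSS in all 8 libraries, namely Itgal and Itgb2, the chains of the leukocyte integrin LFA-1, and Itgav, a chain of vitronectin receptors, and 17 had none in any library. In both 0 h libraries the count was also 3, where 41.2% of all genes had such a peak. Among their 28 regions tested, height called 5 lower and 5 higher at 2 h and fold called 0. The covered length was lower at 2 h for 4 of the 21 and higher for 6, where 19.3% and 34.7% of all genes with any covered length were. The 21 include genes without any, such as Itga2 and Itga3, so the counts and these shares are not on a like base. At Itgal, chosen after the values were seen, 3 of 7 tested regions were lower on height and the covered length was lower at 2 h. Itgb4 went the other way, with 2 of 3 tested regions higher on height and a longer covered length. Of the members, 4 had H3K27ac at the TSS in all 8 libraries, Itga5 in 2, and Itgb7 and Ptk2 in none.

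Adaptors and kinases tie integrins to actin and to signalling. Of 29 such genes, 19 had H3K27ac at the TSS in all 8 libraries and 10 in none. In both 0 h libraries the count was also 19, where 41.2% of all genes had such a peak. Among 67 regions tested height called 6 lower and 11 higher and fold called 0. The covered length was lower at 2 h for 3 of them, the paxillin gene Pxn, the integrin-linked kinase gene Ilk and the tensin gene Tns3, and higher for 10, against 19.3% and 34.7% of all genes with any. Here too genes without any covered length, such as Tln2 and Parva, are among the 29 but not in those shares. Of 9 genes for ligands of the members, 2 had H3K27ac at the TSS in all 8 libraries, the osteopontin gene Spp1 and the laminin chain gene Lamc1. The count in both 0 h libraries was also 2, against the same 41.2% of all genes. Among 10 regions tested height called 2 lower and 1 higher. Over all H3K27ac regions 10.4% were called lower and 10.8% higher, and nothing particular to the lists is read from their counts.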

How the data were processed

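B3 cells with retroviral Ikaros-ERt2 were profiled by ChIP-seq, and libraries were grouped by their titles. The authors aligned reads to mm10 (Bowtie2 2.4.2), marked duplicates (Picard 2.23.7) and called peaks (MACS2 2.2.7.1), per the submitters' processing notes and the study's methods, narrow for Ikaros and H3K27ac and broad for CHD4. The settings for the 30 min libraries, and which input went with which list, are not given in the sources used here. Each list deposited by the authors gives 1 library's positions, a score, a fold enrichment (a ratio) and the −log10 p and −log10 q. The deposited score was not used.

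The 7 members and the gene lists were chosen with earlier results of these data known. All peaks lay within GRCm38 chromosomes. TSSs are the 5′ ends of GENCODE M21 gene records. Peaks overlapping by at least 1 bp were joined into regions. Pileup and mean coverage were recovered from fold and p, which was tested on simulated lists, and height is their quotient. Regions called in all 8 libraries were compared with limma 3.58.1 (R 4.3.3) on log2 fold, quantile normalized, with time as a factor and Benjamini-Hochberg adjustment over all regions. The threshold was 0.05. Named regions were those at a TSS, the leading region per member and target, called in at least 2 libraries, and those gained, lost or past the threshold. Greater depth lets weaker peaks pass a list's threshold. Alternatives were median centring, a −log10 q or fold of at least 3, regions in at least 6 libraries, a replicate block, time as a numeric trend, height, 50% overlap, lists of equal length, a 20 kb window and single libraries left out. Input libraries were not analysed here.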

Additional observations from a re-analysis of the deposited data

How the results depend on the processing

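Gained regions near the members moved from 2 to 1 for Ikaros at a −log10 q of at least 3 and with peaks joined at 50% of the shorter. For CHD4 they moved from 2 to 0 at that q, 0 with lists of equal length and 1 in the 20 kb window, and lost regions from 0 to 1 at that q, 1 at a fold of at least 3 and 2 with equal lists. H3K27ac gains moved from 1 to 2 with 50% joining and 0 in the 20 kb window, and losses from 1 to 0 at that q, 2 with equal lists and 2 with 50% joining. Members with less covered length came to 2 in the 20 kb window, which adds Itga6. The share of Ikaros regions near the members with CHD4 dropped to 20% at that q, with no share over all regions at that q to set beside it.

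Over all Ikaros regions, 16 lower and 4 higher became 108 and 28 with median centring, 166 and 131 on height and 0 and 0 in regions of at least 6 libraries or with a numeric trend, where the Itga5 region was no longer called (log2 -1.38, adjusted p = 0.0731, and -0.60 per hour, adjusted p = 0.162). A −log10 q of at least 3 left 1 higher and a fold of at least 3 gave 25 lower. CHD4 gave 1 lower and 3 higher with median centring. For H3K27ac, 64 lower and 27 higher became 33 lower with median centring, 12 and 8 with a numeric trend and 1526 and 1586 on height, with 3 and 3 near the members. Signs turned with the numeric trend at the Itga4 promoter (0.029), the Itga6 intron (0.016) and the Itgb1 promoter (-0.000334 per hour), and on height at the Itga6 intron (0.90) and the Itgb1 promoter (-0.20). The causes were not tested.

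Same-numbered libraries shared little deviation region by region, with correlations from -0.0254 to 0.134 after quantile normalization. That normalization removes shifts common to a whole library, so whether replicate numbers mark a shared batch was not tested. A replicate block gave 36 lower and 11 higher Ikaros regions and 12 higher H3K27ac regions, kept the Itga5 Ikaros call (adjusted p = 0.024) and changed no other call near the members.

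With single libraries left out, gained regions ranged from 3 to 9 for Ikaros, 2 to 9 for CHD4 and 1 to 8 for H3K27ac, and lost regions from 3 to 6, 0 to 6 and 1 to 3. Members with less covered length ranged from 1 to 2 and with more from 2 to 4. Ikaros regions near members called lower ranged from 0 to 1, all Ikaros regions from 0 to 27 lower and 0 to 10 higher, CHD4 from 0 to 1 higher and H3K27ac from 0 to 22 lower and 0 to 4 higher. Signs turned at the Zfp385a intron for Ikaros (-0.43 to 0.11), and for H3K27ac at the Itgb1 promoter (-0.25 to 0.49), the Itga6 upstream region (-0.35 to 0.47) and the Itga6 intron (-0.56 to 0.43).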
